A study of Sus scrofa with 20 samples.

Results

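Porcine biliary tree stem cells (pBTSCs) were compared with the liver cells that carry neither CD45, the leukocyte antigen, nor EpCAM, the epithelial cell adhesion molecule. All libraries labelled pBTSCs and all labelled liver CD45-/EpCAM- were taken, which gave 7 of the 20 libraries of the series, 5 against 2. The pBTSCs were prepared from the biliary tree of newborn piglets, which the deposited labels name as gallbladder and the study's methods as gallbladder and extrahepatic ducts. Libraries S2, S7 and S11 came from 3 piglets of an H2B-GFP line, in which histone H2B fused to a green fluorescent protein was inserted into the beta-actin locus and is made in all tissues, and libraries S15 and S20 came from 2 piglets without the insert (wild-type). The piglet of S11 was sampled at 2 days of age and the other 4 at 1 day. The study describes these cells as the CD45- and EpCAM+ cells of the biliary tree, and it describes large CD45-/EpCAM- cells of newborn liver as hepatocytes. The liver libraries are S5 and S14, their donors, line and age are not given library by library, and no animal received a treatment. The study's methods describe stem cell preparations as seeded for some hours on low attachment dishes, where they formed organoids with early mesenchymal cells. These partners are described as angioblasts and precursors of endothelial and stellate cells, and hepatocytes as not cultured. Whether each library was prepared in this way is not given. Biliary tree and liver cells differ in tissue and in sort and may differ in preparation, and these cannot be told apart. The p-values measure the spread between libraries within groups, pooled over all 20 libraries in 6 groups, so scatter in the other liver sorts enters them. Libraries were treated as independent, though liver sorts may share a piglet. The labels do not say whether S5 and S14 came from separate animals.

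The deposited values are counts normalized between libraries. An estimate from the lowest values put S2, S7, S11, S15 and S20 at 77800000, 72000000, 29100000, 1570000 and 40600000 reads and S5 and S14 at 21200000 and 40600000. S15 and 2 libraries of other liver sorts, all under 2000000 reads, are called the 3 shallow libraries below. In the shallow S15, 3 reads, taken as the smallest amount to be told from 0, are worth 37.7 normalized counts, against at most 1.91 in the other pBTSC libraries and 4.28 and 1.67 in S5 and S14. These floors cover counting error only. Where the values of all pBTSC libraries are listed, they stand in the order S2, S7, S11 (H2B-GFP) and S15, S20 (wild-type), followed by S5 and S14.

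The extrahepatic bile ducts and the gallbladder are lined by a columnar epithelium, which rests on a wall of fibroblasts, smooth muscle, vessels and nerves. The ducts have peribiliary glands, which secrete mucus and hold the biliary tree stem cells. The study describes the human gallbladder as lacking these glands. In newborn piglets it found no cells stained for its stem cell markers within the gallbladder. The liver lobule is built from hepatocytes, which make most plasma proteins, and from sinusoidal endothelium, stellate cells and Kupffer cells, the resident macrophages. The liver of a newborn still holds blood-forming cells.

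Differences were taken as log2(normalized count + 1) in pBTSCs minus CD45-/EpCAM- liver cells and tested with limma with Benjamini-Hochberg adjustment over 15576 genes. Genes counted as called had an adjusted p under 0.05 and differed by more than 1 in absolute value. On this scale 3114 genes (20%) were called higher in pBTSCs and 2584 (16.6%) lower, 36.6% in either direction. Of these, 3038 and 2536 had no overlap between the 5 and the 2 libraries. With S2, S7 and S11 as the only pBTSC libraries, all of 1 line and, like S5 and S14, with sample numbers up to 14, 2868 genes (18.7%) were higher and 2326 (15.1%) lower, and without the 3 shallow libraries 3565 (23.2%) and 2743 (17.8%) were. Of the genes called in all 5 libraries, 2709 of the higher and 2224 of the lower ones were called in the same direction in these 3, and 0 changed sign. Without S5 the counts dropped to 2025 higher (13.1%) and 1365 lower (8.80%), and without S14 they were 3096 (19.9%) and 2766 (17.8%). When every library was scaled to the same total, 4624 genes (29.7%) were higher and 1509 (9.69%) lower, the median of all genes moved from 0.036 to 0.507 and the share of called genes that were higher moved from 54.7% to 75.4%, so differences near 1 depend on the scaling. An exact permutation test of 5 against 2 libraries cannot give a two-sided p below 0.0952 and was not used for single genes.

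Genes were grouped in 21 lists of 509 different genes by cell type or function, of which 464 had a row of that name and 442 were tested. The lists that were furthest lower in pBTSCs by their median were plasma proteins (-7.70), hepatocyte metabolism and transport (-7.65), granulocytes, mast cells and megakaryocytes (-4.27) and erythroid cells (-4.05). The lists that were furthest higher were Schwann cells and neurons (4.23), fibroblast and matrix (3.70), smooth muscle (2.98) and mesenchyme transcription factors (2.94). With genes at the liver floor set to their lower bound, the medians of the Schwann cell and mesenchyme lists were 4.17 and 2.77, the latter then just under that of mucins and gland secretion (2.79).

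**Figure D1:**
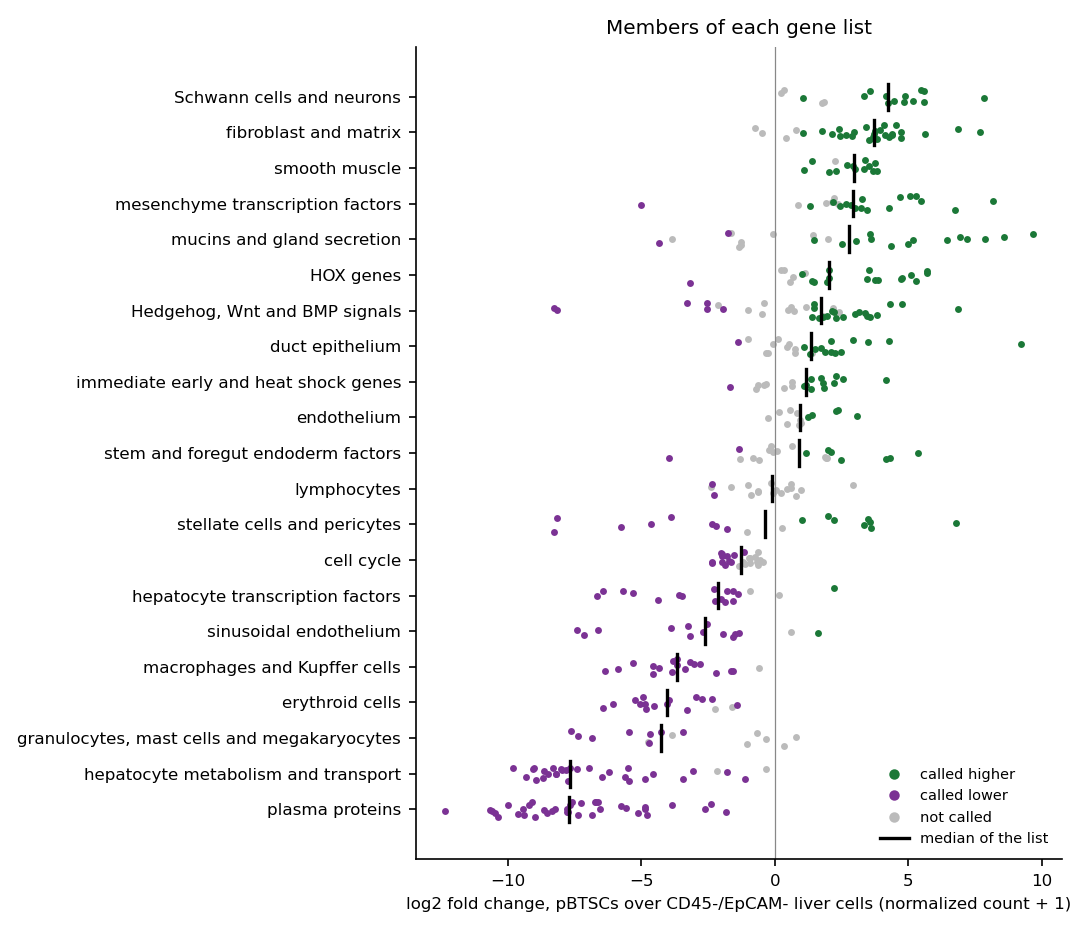
Log2 fold change of pBTSCs over CD45-/EpCAM- liver cells for each tested member of the 21 gene lists (one point per gene, coloured by its call, with the list's median as a black bar). The plasma protein list lies to the left of 0 with every member called lower, and the fibroblast and matrix list lies mostly to the right with a median of 3.70.

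The genes of the sort itself came first. EPCAM stood at 2075, 1145, 1364, 1047 and 884 normalized counts in pBTSCs and at 1090 and 491 in S5 and S14. The ranges overlap, and the difference of 0.77 (SE 0.34, adjusted p = 0.0679) was not called. It was called higher with S2, S7 and S11 alone, without S5 and with equal totals. PTPRC, the gene of CD45, stood at 972, 534, 777, 1455 and 2139 against 1317 and 2850, a difference of -0.89 (SE 0.70, adjusted p = 0.305). Over all 7 libraries, neither gene of the 2 gates separated the groups at the level of RNA. The markers of fibroblasts, smooth muscle, vessels and nerves given below were high in the same pBTSC libraries, where the fibroblast and matrix list took from 2.91% to 9.97% of the normalized counts and the duct epithelium list from 0.258% to 0.646%, and the part of such cells in the results was not tested.

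Plasma protein genes were lower in pBTSCs throughout. All 38 members tested were called lower, against 16.6% of all genes, and in each of them every pBTSC library lay below both liver libraries, which held for 30.0% of all genes. Together they made up 13.3% and 14.6% of the normalized counts of S5 and S14 and from 0.304% to 0.627% in pBTSCs. ALB, albumin, stood at 376, 287, 288, 19832 and 25087 in pBTSCs and at 663869 and 1348204 in the liver libraries (-9.09, SE 1.55, adjusted p = 1.5e-04). The wild-type libraries S15 and S20 held far more of it than the 3 H2B-GFP libraries, yet remained below both liver libraries.

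Both wild-type libraries lay above all 3 H2B-GFP libraries for 26 of the 38 members (68.4%), against 19.3% of all genes tested, and below them for 3. By the study's records, S15 and S20 also had fewer cells and more concentrated RNA than S2, S7 and S11, and they have higher sample numbers. RNA integrity was lower in S2, S7 and S11 than in S20 and was not given for S15. Line cannot be told apart from these, here or wherever the H2B-GFP and wild-type libraries differ below. APOA2, a protein of high-density lipoprotein, stood at 0.904, 1.04 and 1.30 in S2, S7 and S11 and at 101 and 147 in S15 and S20, against 21651 and 12192 in liver (-10.58, SE 1.34, adjusted p = 9.3e-06). FGB, a fibrinogen chain, stood at 41.9, 84.3, 72.3, 1704 and 3237 against 514435 and 151039 (adjusted p = 1.9e-05). F9, coagulation factor IX, was at 1.87 or less in the H2B-GFP libraries and at 156 and 250 in the wild-type libraries, against 13328 and 8792. The largest difference of all genes that met the naming rule was that of APCS, serum amyloid P, at 0.681, 2.32, 0, 0 and 7.19 in pBTSCs and 43312 and 2876 in liver (-12.34, SE 2.04, adjusted p = 1.2e-04). SERPINF2, alpha-2-antiplasmin, showed no such split, at 409, 409, 254, 370 and 411 against 26946 and 10859 (-5.55, SE 0.47).

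A few secreted proteins of the list kept a high level in pBTSCs. APOA1, the main protein of high-density lipoprotein, stood at 23518, 27035, 23582, 22643 and 27517 in pBTSCs and 210400 and 81299 in liver (-2.40, SE 0.45, adjusted p = 3.6e-04). C3, the central complement component, stood at 18643, 20679, 20485, 11126 and 16517 against 118576 and 93069 (-2.62, SE 0.66, adjusted p = 0.00369), a call that was lost without S5. APOA1 was nearly level across the pBTSC libraries, and C3 was lower in S15 and S20 than in the 3 H2B-GFP libraries. C4BPA, a complement inhibitor, had the smallest difference of the list (-1.82, SE 0.58, adjusted p = 0.0147), and its call was lost when S14 was left out, when S2, S7 and S11 were used alone and with equal totals.

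Genes of hepatocyte metabolism and transport followed, with 29 of 31 called lower, against 16.6% of all genes, and 0 higher. The list made up 1.18% and 0.725% of S5 and S14 and from 0.0538% to 0.0865% of the pBTSC libraries. The urea cycle gene OTC stood at 1.36, 1.29, 0.636, 87.9 and 75.7 against 2611 and 2604 (-8.17, SE 1.26, adjusted p = 6.1e-05). G6PC, the last enzyme of glucose release, stood at 2.72, 2.84, 2.54, 138 and 173 against 9205 and 8410 (-9.06, SE 1.32). SLC10A1, the bile acid importer of the hepatocyte, stood at 5.67, 2.84, 2.54, 62.8 and 93.9 against 5915 and 5383 (adjusted p = 4.1e-06). ABCB11, the bile salt export pump, was at 1.37 or less in the H2B-GFP libraries, at 53.5 and 81.6 in the wild-type libraries and at 2487 and 2853 in liver. The H2B-GFP libraries were thus below the wild-type libraries for each of these 4 genes, and both were below liver.

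The exceptions of the metabolic list were CYP7A1 and CYP3A29. CYP7A1, the rate-limiting enzyme of bile acid synthesis, was low in both groups, at 2.31, 0.491, 9.42, 23.2 and 29.3 in pBTSCs and 11.9 and 7.22 in liver (-0.32, SE 1.44, adjusted p = 0.870). CYP3A29, a drug-metabolizing cytochrome, stood at 106, 91.9, 110, 437 and 940 against 1193 and 789 and overlapped through S20 (adjusted p = 0.297). GLUL, glutamine synthetase, had the smallest called difference (-1.13, SE 0.38, adjusted p = 0.0194), which was not called without S5, without S14 or with equal totals.

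Transcription factors of the hepatocyte were lower by less. Of 18 members, 15 were called lower and 1 higher, against 16.6% and 20% of all genes, with a median of -2.13. HNF4A, the nuclear receptor that hepatocytes share with gut and duct epithelium, stood at 1366, 761, 857, 929 and 486 against 3511 and 2571 (-1.85, SE 0.41, adjusted p = 0.00152). CREB3L3, a liver-enriched factor, stood at 58.9, 75.5, 69.5, 95.6 and 120 against 3956 and 4414 (-5.67, SE 0.32, adjusted p = 4.2e-09). ATF5 stood at 223, 251, 161, 415 and 776 against 32517 and 21933 (-6.42, SE 0.49). NR0B2, the bile acid responsive repressor SHP, stood at 1.59, 1.03, 0.636, 12.6 and 4.79 against 635 and 215 (-6.65, SE 0.70). These levels separated the groups in every library. TBX3 was the member called higher, at 1169, 1072, 996, 1000 and 1142 against 159 and 337 (2.21, SE 0.50, adjusted p = 0.00161), a call lost without S5. PROX1, which marks hepatoblasts and lymphatic vessels, was not called, at 361, 611, 813, 1569 and 791 against 711 and 623.

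**Figure D2:**
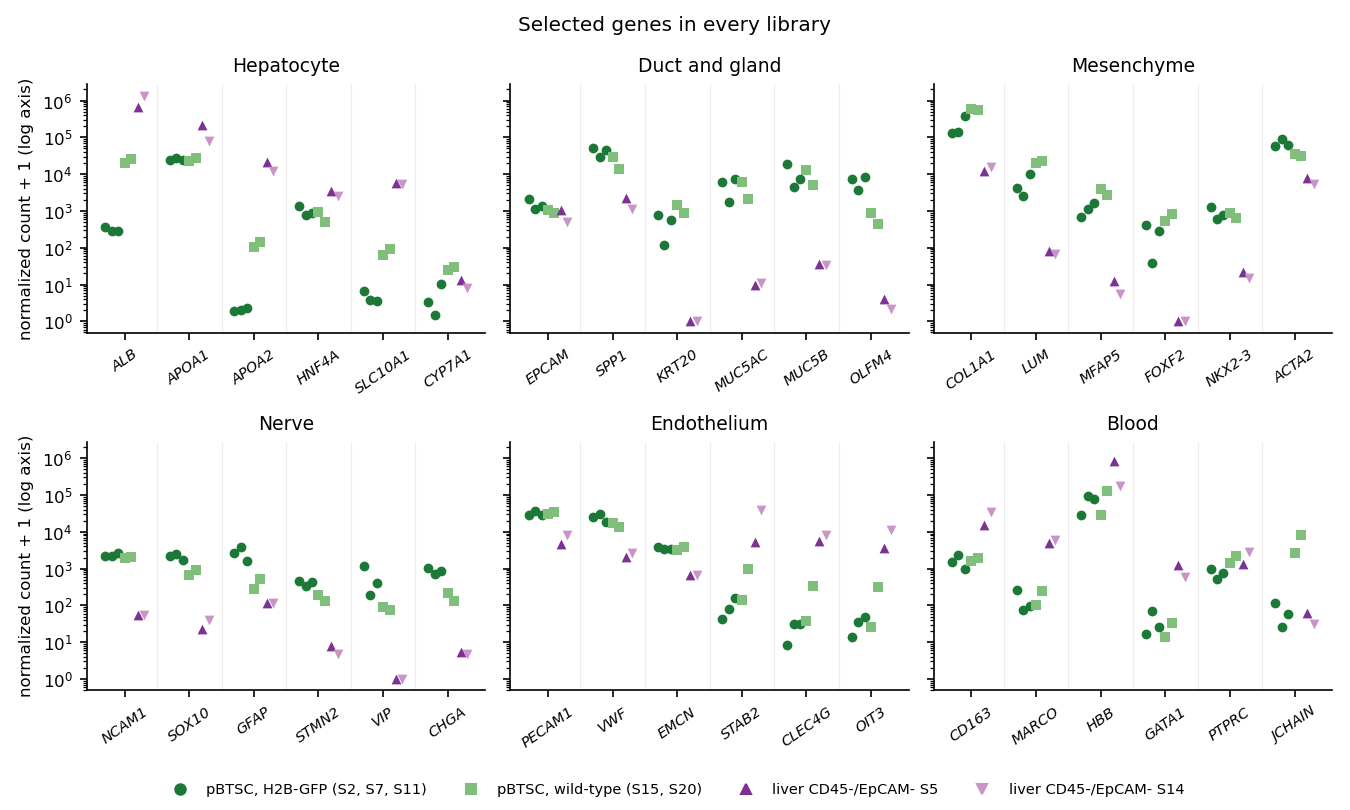
Normalized count + 1 on a log axis for 36 genes in each of the 7 libraries (circles and squares, pBTSCs of the H2B-GFP and wild-type piglets; triangles, liver S5 and S14). ALB, APOA2 and SLC10A1 are higher in the wild-type than in the H2B-GFP pBTSC libraries, whereas APOA1 and PECAM1 are level across the 5 pBTSC libraries.

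Duct epithelium genes divided. Of 24 members tested, 13 were called higher in pBTSCs (20% of all genes) and 1 lower, and 10 were not called. The duct keratin KRT19 and CLDN3, CLDN10 and CD24 had no usable row of that name and were not tested. Fewer were called higher when S14 was left out, a fit with 1 liver library. SPP1, osteopontin, which duct cells secrete, stood at 51735, 28688, 44052, 29923 and 13614 against 2282 and 1113 (4.26, SE 0.38, adjusted p = 3.3e-07). KRT20, a keratin of gut epithelium, stood at 771, 120, 573, 1494 and 894 in pBTSCs and at 0 in both liver libraries, so its median was at least 180-fold above the liver floor. ESRP1, an epithelial splicing factor, stood at 461, 294, 286, 258 and 143 against 47.9 and 25.6 (2.91, SE 0.56). KRT7, the duct keratin, stood at 2081, 1065, 984, 855 and 440 against 425 and 162 (1.87, SE 0.43, adjusted p = 0.00187), and its call was lost without S14.

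Several epithelial genes with a high level in both groups did not separate them. CDH1, E-cadherin, stood at 6839, 4090, 4763, 4665 and 4046 against 6723 and 4934 (-0.27, SE 0.35, adjusted p = 0.548). KRT8, made by ducts and hepatocytes alike, stood at 12706, 4828, 5968, 7004 and 4747 against 7427 and 3060 (adjusted p = 0.418). CFTR, the chloride channel of duct cells, stood at 887, 523, 635, 660 and 677 against 613 and 602 (adjusted p = 0.774). SOX9, a duct and progenitor factor, stood at 812, 821, 582, 728 and 402 against 534 and 272 (0.76, SE 0.33, adjusted p = 0.0630) and was called without S5 and with equal totals. The EpCAM- liver libraries thus held RNA of these genes at levels that overlapped with those of pBTSCs. Of the 24 members of the list, 12 had every pBTSC library above both liver libraries, against 33.6% of all genes, and 0 had every one below. CLDN4, a tight junction protein, was the member called lower (-1.36, SE 0.53, adjusted p = 0.0410), and that call was lost without S5, without the 3 shallow libraries, with S2, S7 and S11 alone and with equal totals.

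Mucins and gland products were mostly higher. Of 24 tested, 14 were called higher and 2 lower, against 20% and 16.6% of all genes, with a median of 2.79. MUC5B, a gel-forming mucin, stood at 18979, 4355, 7445, 12615 and 4974 against 34.5 and 33.5 (7.88, SE 1.15, adjusted p = 3.6e-05). MUC5AC, the surface mucin of gastric type epithelium, stood at 6209, 1699, 7157, 6266 and 2099 against 8.60 and 10 (8.59, SE 1.27). AGR2, a chaperone needed for mucin folding, stood at 11395, 3779, 4883, 7259 and 3179 against 67.2 and 19.9 (7.18, SE 0.56, adjusted p = 1.1e-07). The lowest pBTSC library of each lay more than an order of magnitude above the higher liver library.

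OLFM4, a secreted marker of gut crypt cells, had the largest rise that met the naming rule. It stood at 7201, 3674, 8254, 880 and 434 in pBTSCs and at 3.12 and 1.22 in liver, at or under 3 reads in both, so that the pBTSC median was at least 859-fold above the liver floor. It was lower in both wild-type than in the 3 H2B-GFP libraries. TCN1, a vitamin B12 binding protein of secretions, stood at 32545, 25476, 22245, 22484 and 11321 against 295 and 103 (6.94, SE 1.30). TFF3, a trefoil peptide, stood at 221, 52.2, 137, 37.7 and 28.8 against 2.83 and 0, at least 12.2-fold above the liver floor by its median, whereas TFF1 was at 10.2 or less in all 7 libraries and was not called. PIGR, which carries antibodies across epithelium, stood at 8158, 1350, 7682, 8509 and 4869 against 329 and 187 (4.36, SE 0.60). The 2 members called lower were LCN2 (-1.74, SE 0.52) and GKN2 (-4.32, SE 1.18), a gastrokine that stood at 92.6 and 19.5 in liver and at 3.88 or less in pBTSCs, and neither call held without S5.

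Stem cell and foregut endoderm factors were mixed, with 7 of 20 called higher, 2 lower and 11 not called, against 20% of all genes called higher and 16.6% lower. POU5F1, the gene of OCT4, KLF4 and BMI1 had no usable row of that name and were not tested. SOX17, a factor of early endoderm and of the biliary bud, stood at 1170, 1055, 856, 1131 and 1168 against 142 and 260 (2.47, SE 0.32, adjusted p = 1.3e-05). SOX2, a pluripotency and foregut factor, was low, at 47.7, 45.7, 35.6, 25.1 and 40.7 against 0 and 2.79 (4.33, SE 0.70, adjusted p = 9.3e-05). NKX6-1, a pancreatic progenitor factor, stood at 21.1, 5.16, 26.7, 12.6 and 36.9 and at 0 in both liver libraries, at least 4.93-fold above the liver floor by its median. LGR5, the R-spondin receptor of stem cells in several epithelia, stood at 684, 436, 414, 291 and 346 against 63.4 and 146 (2.10, SE 0.40). KLF5 stood at 2980, 1643, 1687, 1934 and 769 against 555 and 308 (adjusted p = 0.00142). NCAM1, the neural cell adhesion molecule, stood at 2219, 2204, 2711, 1903 and 2100 against 53.1 and 53.3 (5.35, SE 1.34, adjusted p = 0.00350). It is also a gene of Schwann cells and neurons, whose markers were higher in the same libraries, and the part of these cells in its level was not tested. Some endothelial genes, such as PECAM1, were higher in these libraries too. The part of endothelial, nerve and other cells in the levels of SOX17 and SOX2 was not tested either.

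PDX1, a pancreatic and duodenal factor, stood at 147, 105, 109, 126 and 71.9 against 48.6 and 16.7. All pBTSC libraries lay above both liver libraries, but the difference of 1.89 (SE 0.91, adjusted p = 0.0929) was not called, and it was called without the 3 shallow libraries and with equal totals. CD44 (-0.14, adjusted p = 0.775) and CXCR4 (-0.05, adjusted p = 0.943) were not called. GATA4 was lower (-1.32, SE 0.27) and GATA6 higher (1.18, SE 0.24), and neither call held without S14, nor that of GATA4 with equal totals. LIN28B, an RNA-binding protein of fetal progenitors, was lower in pBTSCs, at 17.9, 13.7, 26.1, 12.6 and 21.6 against 305 and 275 (-3.96, SE 0.56, adjusted p = 2.7e-05). AFP, alpha-fetoprotein, was among the 10 largest losses in normalized counts, at 8066, 1048, 3856, 12087 and 8054 against 175531 and 139155 (-4.96, SE 1.95, adjusted p = 0.0426). Its call was lost without S5, without S14, without the 3 shallow libraries, with S2, S7 and S11 alone and with equal totals.

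Fibroblast and matrix genes were higher in pBTSCs, with 27 of 31 called higher, against 20% of all genes, and 0 lower. They made up 2.91%, 3.01%, 6.54%, 9.90% and 9.97% of S2, S7, S11, S15 and S20 and 0.315% and 0.568% of S5 and S14. COL3A1, COL1A1 and COL1A2 were the 3 largest gains of all named genes in normalized counts. COL1A1, a chain of type I collagen, stood at 129440, 141140, 381293, 581225 and 543321 against 12015 and 16115 (4.40, SE 0.62, adjusted p = 2.7e-05). LUM, lumican, stood at 4227, 2514, 10050, 19666 and 22905 against 80.2 and 67.4 (6.86, SE 0.83). PI16, a marker of adventitial fibroblasts, stood at 620, 863, 2152, 6373 and 6788 against 92.5 and 70.2 (4.74, SE 0.91). For all 3 genes S2 and S7 were the lowest pBTSC libraries and S15 and S20 the highest.

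ELN, elastin, did not follow that order and stood at 24982, 52970, 49238, 30840 and 24229 against 2345 and 1753 (4.09, SE 0.47, adjusted p = 3.8e-06). MFAP5, a microfibril protein, stood at 705, 1098, 1612, 3986 and 2726 against 11.3 and 4.39 (7.69, SE 1.53). The members not called were POSTN, FN1, THY1 and TNC. FN1, fibronectin, which hepatocytes also secrete into plasma, stood at 19998, 26072, 37852, 48178 and 39857 against 39294 and 53015 (-0.48, SE 0.57, adjusted p = 0.511). THY1, a marker of fibroblasts and progenitors, stood at 897, 804, 1640, 4399 and 3979 against 2307 and 4099.

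Smooth muscle genes were called higher in 13 of 14 cases, against 20% of all genes, and lower in 0, with a median of 2.98. ACTG2 and MYH11 had no usable row of that name and were not tested. ACTA2, smooth muscle actin, stood at 57757, 89762, 61974, 34760 and 31390 against 8098 and 5539 (2.93, SE 0.54, adjusted p = 3.2e-04). SYNPO2 stood at 8160, 8616, 9777, 10625 and 10107 against 592 and 742 (3.83, SE 0.37), and MYOCD, the myocardin coactivator of contractile genes, at 432, 852, 547, 320 and 272 against 23.3 and 50.5 (3.66, SE 0.54). PLN, phospholamban, was the member not called (2.24, SE 1.02, adjusted p = 0.0769), though it was without the 3 shallow libraries and with equal totals. The list made up from 0.682% to 1.32% of the pBTSC libraries and 0.131% and 0.115% of the liver libraries. In bulk libraries, more cells of a type and more RNA per cell cannot be told apart.

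Transcription factors of the gut and foregut mesenchyme were called higher in 16 of 22 cases, against 20% of all genes. FOXF2 stood at 404, 37.7, 290, 527 and 816 in pBTSCs and at 0 in both liver libraries, at least 94.4-fold above the liver floor by its median. NKX2-3, a factor of gut and spleen mesenchyme, stood at 1282, 608, 780, 904 and 651 against 21.4 and 13.9 (5.48, SE 0.94, adjusted p = 1.8e-04). MEOX2 stood at 1209, 1619, 1753, 1872 and 1253 against 35.7 and 40.7 (5.28, SE 0.65), and PRRX1 at 871, 875, 2028, 1565 and 691 against 23.2 and 44.1 (5.07, SE 0.74). LHX2, a factor of hepatic stellate cells, was the member called lower, at 3.33, 1.62, 6.01, 26.3 and 8.04 against 172 and 307 (-5.00, SE 0.71, adjusted p = 2.8e-05).

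Stellate cell and pericyte genes fell on both sides, with 8 of 18 called higher and 8 lower, against 20% and 16.6% of all genes. The lower members include genes known from hepatic stellate cells. LRAT, which stores vitamin A as esters, stood at 2.15, 2.20, 3.33, 13.2 and 7.03 against 181 and 485 (-5.76, SE 0.75, adjusted p = 1.2e-05). COLEC10, a collectin, stood at 139, 112, 184, 127 and 268 against 3241 and 4812 (-4.64, SE 0.32, adjusted p = 4.4e-08). BMP10 and GDF2, which encode the circulating ligands BMP10 and BMP9, stood at 544 and 748 and at 470 and 762 in liver and at 3.83 or less in every pBTSC library. The higher members include genes of vascular pericytes and smooth muscle. RGS5 stood at 18879, 7639, 18212, 13927 and 20703 against 779 and 2048 (3.57, SE 0.60), NOTCH3 at 16064, 15693, 13592, 8426 and 7337 against 718 and 1468 (3.50, SE 0.42), and CSPG4 (3.62, SE 0.42) was higher too.

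HOX genes, which give cells their position along the body axis, were called higher in 16 of 22 cases and lower in 1. Of all genes, 20% were called higher and 16.6% lower. HOXD8 stood at 498, 500, 500, 628 and 606 against 18.6 and 21.2 (4.71, SE 0.38, adjusted p = 1.3e-07), and was nearly level across the 5 piglets. HOXD3 stood at 120, 110, 128, 102 and 126 against 1.44 and 1.13, at least 28.1-fold above the liver floor by its median. HOXB9 stood at 177, 112, 115, 126 and 62.8 against 0 and 3.90 (5.68, SE 0.86), and HOXB7 at 275, 212, 228, 264 and 271 against 12.9 and 5.02 (4.77, SE 0.80). Along the HOXB cluster the difference was 1.40 for HOXB2, 2.03 for HOXB3, 1.02 for HOXB4, 0.23 for HOXB5, 4.77 for HOXB7, 3.51 for HOXB8 and 5.68 for HOXB9. HOXB6, at or under 3 reads in both liver libraries, was at least 6.19-fold above the liver floor by its median. HOXB5 was not called (adjusted p = 0.873), and the calls of HOXB2 and HOXB4 were lost without S5.

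**Figure D3:**
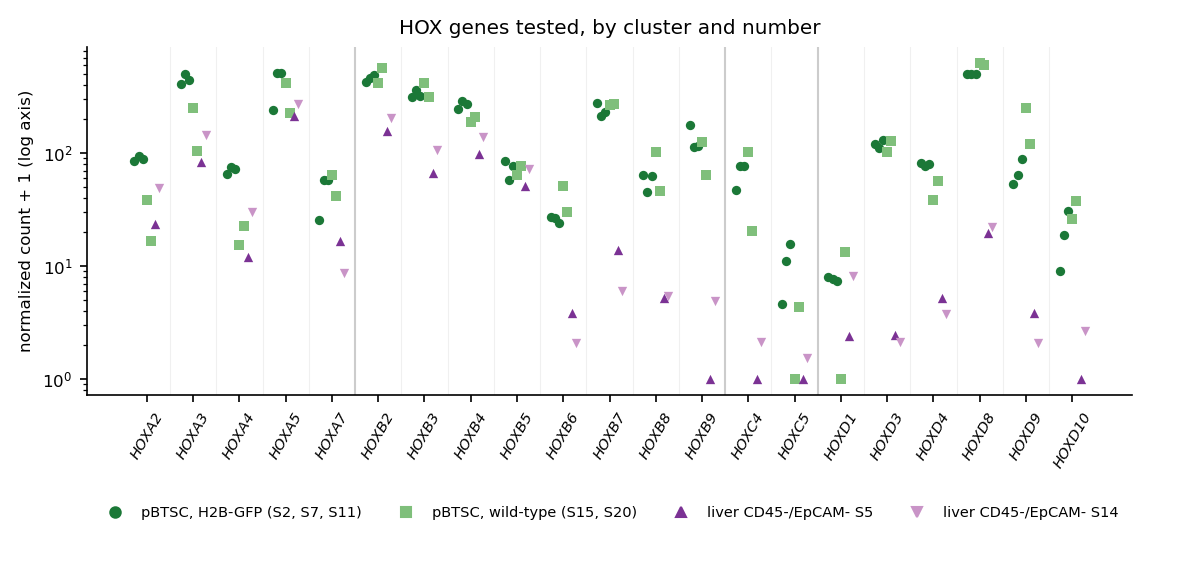
Normalized count + 1 on a log axis of 21 HOX genes, in cluster order, in each of the 7 libraries. From HOXB6 to HOXB9 and at HOXD3 and HOXD8 every pBTSC library lies above both.

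Schwann cell and neuron genes were called higher in 13 of 17 cases, against 20% of all genes, and lower in 0. SOX10, the factor of neural crest and glia, stood at 2241, 2503, 1751, 672 and 933 against 21.4 and 38.3 (5.60, SE 1.17, adjusted p = 8.9e-04). GFAP, made by glia and by some stellate cells, stood at 2707, 3965, 1611, 275 and 524 against 114 and 119 (3.35, SE 0.79). Both were higher in the H2B-GFP than in the wild-type libraries, and the list made up 0.152%, 0.130% and 0.110% of the former, 0.0406% and 0.0483% of the latter and 0.0163% and 0.0212% of liver. VIP, a neuropeptide of gut and gallbladder nerves that is in no list and was among the 15 largest rises, stood at 1167, 191, 394, 87.9 and 74.8 and at 0 in both liver libraries, at least 44.5-fold above the liver floor by its median. STMN2 (5.47, SE 0.77) and SNAP25 (5.16, SE 0.83), proteins of axons and synapses, were higher as well, and CHGA, the chromogranin of neuroendocrine cells and a member of the gland list, stood at 1025, 702, 856, 214 and 134 against 4.29 and 3.90 (6.46, SE 0.86). MBP, a myelin protein, was not called (0.22, adjusted p = 0.719).

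General endothelial genes and genes of the liver sinusoid differed in their calls. Of 13 general endothelial genes, 5 were called higher and 0 lower, against 20% and 16.6% of all genes. With equal totals 8 were higher, against 29.7% of all genes, and the count also changed when S5 or S14 was left out. VWF, von Willebrand factor, stood at 25734, 30693, 18211, 17881 and 13150 against 2131 and 2651 (3.09, SE 0.35, adjusted p = 2.9e-06). PECAM1, CD31, stood at 28048, 36576, 28776, 30691 and 34614 against 4803 and 8413 (2.31, SE 0.36), and EMCN, endomucin, at 3852, 3394, 3378, 3203 and 3819 against 668 and 680 (2.38, SE 0.32). KDR, the VEGF receptor, was not called, at 9509, 8048, 7613, 7545 and 8542 against 3312 and 16795.

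Of 14 genes of the liver sinusoid, 12 were called lower and 1 higher, against 16.6% and 20% of all genes. STAB2, a scavenger receptor, stood at 40.6, 77.0, 154, 138 and 987 against 5300 and 40206 (-6.63, SE 1.03, adjusted p = 6.7e-05). CLEC4G, a sinusoidal lectin, stood at 7.45, 29.7, 31.2, 37.8 and 330 against 5563 and 8340 (-7.40, SE 0.90), and OIT3 at 12.5, 33.6, 47.1, 25.1 and 318 against 3726 and 10991 (-7.15, SE 0.87). S20 was the highest pBTSC library for all 3. F8, coagulation factor VIII, was the member called higher, at 2469, 5068, 2753, 4257 and 2782 against 523 and 2217 (1.63, SE 0.57, adjusted p = 0.0257), which was lost without S5 and with S2, S7 and S11 alone.

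**Figure D4:**
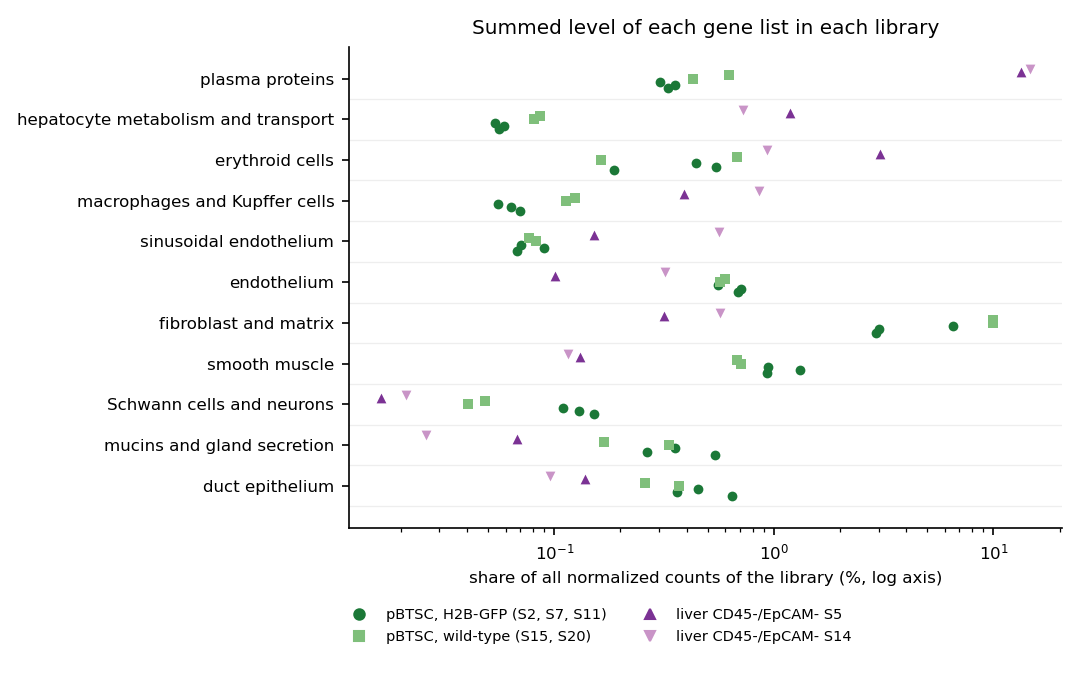
Share of each library's normalized counts taken by 11 gene lists (log axis, one symbol per library). Plasma proteins, sinusoidal endothelium and macrophage genes take a larger share in both liver libraries, fibroblast, smooth muscle, Schwann and mucin genes a larger share in all 5 pBTSC libraries.

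Markers of blood cells were present in the CD45-/EpCAM- liver libraries. Of 18 macrophage and Kupffer cell genes, 17 were called lower in pBTSCs, against 16.6% of all genes, and 0 higher. The list made up 0.391% and 0.859% of S5 and S14, and from 0.0552% to 0.124% of pBTSCs. MARCO, a scavenger receptor of Kupffer cells, stood at 269, 74.6, 97.9, 100 and 247 against 5052 and 5923 (-5.31, SE 0.61, adjusted p = 3.7e-06). CD163, the haemoglobin scavenger receptor, stood at 1491, 2398, 958, 1639 and 1907 against 15220 and 35637 (-3.86, SE 0.61), and CLEC4F at 8.39, 14.7, 81.5, 37.7 and 573 against 988 and 15756, the last not called without S14. TLR4 was the member not called. Lymphocyte genes did not separate the groups, with 2 of 18 called lower, CD4 and NKG7, against 16.6% of all genes, and 0 higher. CD4 was not called without S14 or with equal totals. JCHAIN, the joining chain of secreted antibodies, stood at 116, 25.5, 59.3, 2715 and 8213 in pBTSCs and at 60.1 and 30.7 in liver, so that the wild-type libraries were above all others (2.92, SE 1.83, adjusted p = 0.194).

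Erythroid genes were called lower in 15 of 17 cases, against 16.6% of all genes, and higher in 0. In 16 of the 17, every pBTSC library lay below both liver libraries, against 30.0% of all genes. The list made up 3.03% of S5, 0.934% of S14 and from 0.164% to 0.676% of pBTSCs. HBB, beta-globin, stood at 28770, 92977, 76431, 28318 and 125452 against 840919 and 181672 (-2.72, SE 1.04, adjusted p = 0.0387), and was not called without S5, without the 3 shallow libraries, with S2, S7 and S11 alone or with equal totals. GATA1, the erythroid master factor, stood at 15.6, 69.5, 24.2, 12.6 and 32.6 against 1267 and 610 (-5.04, SE 1.23, adjusted p = 0.00285), and EPOR, the erythropoietin receptor, at 7.26, 26.1, 19.7, 0 and 9.10 against 901 and 605 (-6.43, SE 1.40). Fewer erythroid members were called lower without S14, and most of their calls were lost without S5, where calls also dropped among all genes. Granulocyte, mast cell and megakaryocyte genes were called lower in 8 of 15 cases, against 16.6% of all genes, and higher in 0. Without the 3 shallow libraries 5 were called lower (17.8% of all genes), and with S2, S7 and S11 alone 3 were (15.1% of all genes). Fewer were also called lower when S5 or S14 was left out. ELANE, neutrophil elastase, stood at 8.70, 122, 4.61, 0 and 9.22 against 1428 and 774 (-6.83, SE 2.09, adjusted p = 0.0121). S7 was the highest pBTSC library for ELANE and for MPO, at 40.4, 445, 21.8, 12.6 and 26.0 against 2664 and 1390. MPO was not called without either S5 or S14 and ELANE not without S5.

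**Figure D5:**
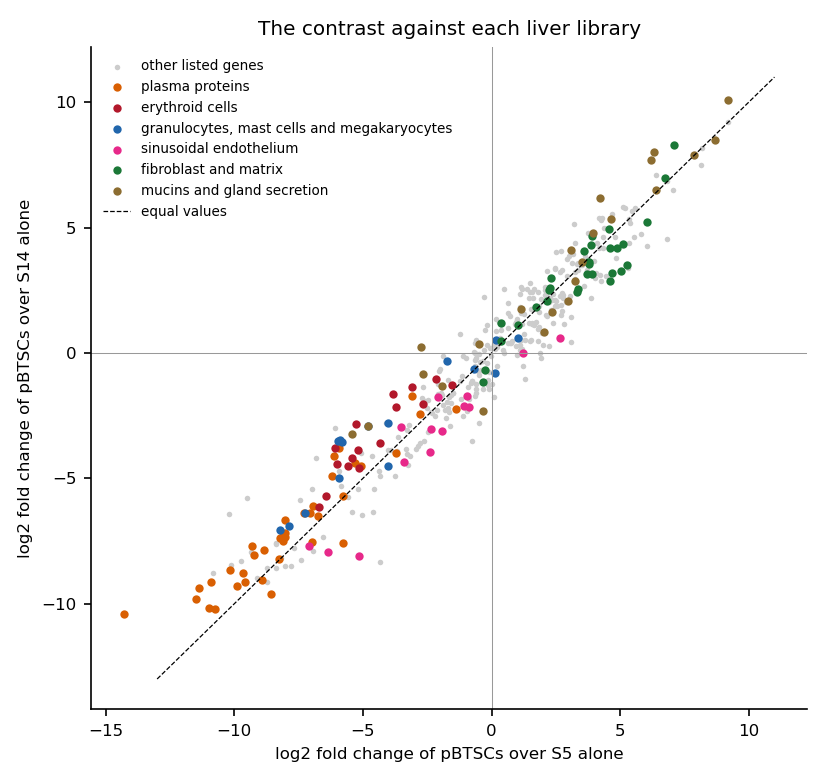
Log2 fold change of pBTSCs over S5 alone (horizontal) and over S14 alone (vertical) for the listed genes, with 6 lists in colour and a dashed line of equal values. Erythroid genes lie above the line, with a larger difference from S5, and most sinusoidal genes below it, with a larger difference from S14.

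Cell cycle genes were called lower in 12 of 24 cases, against 16.6% of all genes, and higher in 0, with a median of -1.27. MKI67, the proliferation antigen, stood at 1872, 1861, 3310, 2499 and 1844 against 7645 and 10736 (-2.03, SE 0.59, adjusted p = 0.00932), a call lost without S14 and with equal totals. UBE2C stood at 277, 314, 538, 315 and 452 against 2095 and 1675 (-2.35, SE 0.56) and RRM2, a subunit of ribonucleotide reductase, at 743, 524, 1033, 1018 and 1070 against 3116 and 3548 (-1.97, SE 0.45). With equal totals 3 members were called lower, against 9.69% of all genes. Fewer were also called lower when S5 or S14 was left out, so the count rests on the scaling and on both liver libraries. The licensing factors MCM2, MCM3 and MCM5 were not called. Erythroid and granulocyte precursors, whose genes were higher in the same liver libraries, also divide, and their part in these levels was not tested.

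Signals of the Hedgehog, Wnt and BMP families were called higher in 19 of 36 cases and lower in 6, against 20% and 16.6% of all genes, so the share of lower members is that of genes at large. In the Hedgehog pathway the ligands SHH (-0.46, adjusted p = 0.465) and IHH (0.71, adjusted p = 0.367) were not called, whereas DHH, a ligand made by Schwann cells and endothelium, stood at 229, 255, 236, 151 and 125 against 28.5 and 10.6 (3.38, SE 0.57, adjusted p = 1.4e-04). The receptor PTCH1 stood at 1267, 1029, 1298, 1411 and 1314 against 181 and 248 (2.56, SE 0.28), and the transducer SMO at 1140, 1339, 1309, 1181 and 1187 against 290 and 245 (2.20, SE 0.20, adjusted p = 3.7e-07). The transcription factors GLI2 (2.14, SE 0.41) and GLI3 (3.14, SE 0.42) were higher and GLI1 was not called (-1.02, adjusted p = 0.126). HHIP, which binds and holds back the ligands, was lower, at 544, 339, 878, 803 and 657 against 2309 and 5450 (-2.53, SE 0.45).

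Among Wnt genes, WNT9B, WNT2 and RSPO3, known from the endothelium of the liver, were lower. WNT9B stood at 18.2, 109, 32.4, 12.6 and 22.5 against 210 and 385 (-3.27, SE 0.63, adjusted p = 4.5e-04), WNT2 was lower by a difference of -2.52 (SE 0.68), lost without S14, and RSPO3 by one of -1.92 (SE 0.50), lost without S5. WNT5A (2.29, SE 0.57), WNT6 (3.83, SE 0.58) and WNT7B (1.95, SE 0.48) were higher, the first not without S5 and the last not without S14. The secreted inhibitors DKK2, DKK3 and FRZB were higher, with FRZB at 2221, 2436, 2605, 1951 and 2431 against 301 and 277 (adjusted p = 1.9e-05). AXIN2, a target of Wnt signalling, stood at 636, 646, 640, 586 and 462 against 177 and 253 (1.48, SE 0.26, adjusted p = 2.1e-04). GREM1, a BMP antagonist of gut mesenchyme, stood at 370, 692, 431, 458 and 339 against 2.87 and 2.79 (6.86, SE 0.89).

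Immediate early genes, which respond within minutes to stimuli such as tissue dissociation, were mostly higher. Of the 19 members of the list with heat shock genes, 11 were called higher and 1 lower, against 20% and 16.6% of all genes. JUN, JUND and the inducible heat shock genes HSPA1A, HSPA1B and HSPA6 had no usable row of that name and were not tested. FOS stood at 117126, 113221, 112533, 68419 and 85317 against 32560 and 43249 (1.37, SE 0.34, adjusted p = 0.00294), a call lost without S5, and EGR1 at 165518, 148910, 129477, 101432 and 99374 against 35273 and 40774 (1.74, SE 0.39). EGR3 stood at 852, 729, 545, 668 and 525 against 18.6 and 67.1 (4.16, SE 0.61, adjusted p = 3.8e-05). The list made up from 1.79% to 2.86% of pBTSC libraries and 0.717% and 0.923% of liver libraries. Heat shock genes were not called higher (DNAJB1 -0.61, adjusted p = 0.0933, and HSPH1 -0.70, adjusted p = 0.107, called lower without S5). HSPA5, the chaperone BiP of the endoplasmic reticulum, was lower, at 17540, 16371, 15419, 14183 and 12057 against 64450 and 35469 (-1.67, SE 0.41), a call lost without S5.

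Among the 15 largest rises were further genes outside the lists. SLC6A14, an amino acid transporter, stood at 458, 195, 356, 615 and 230 against 0 and 0.524 (at least 83.2-fold by the median). SLC9A3, the sodium-proton exchanger of absorbing epithelia, stood at 2089, 247, 709, 2207 and 1113 against 1.28 and 5 (8.05, SE 0.96, adjusted p = 5.3e-06), and SLC26A3, a chloride-bicarbonate exchanger, at 582, 3.61, 139, 1406 and 683 against 0 and 0.557 (at least 136-fold). S7 was the lowest pBTSC library for all 3, and for KRT20 and FOXF2. CCL26, an eosinophil-attracting chemokine, stood at 167, 189, 122, 163 and 344 and at 0 in both liver libraries (at least 38.9-fold). POF1B, COL6A6 and SCG2 were the others. Among the 15 largest falls the genes outside the lists were HFE2, APOC2, SERPINA3-2, FABP1 and ACSM4. HFE2, hemojuvelin, stood at 0.290, 0.990, 0, 0 and 25.7 against 6150 and 1740 (-10.46, SE 0.96), and FABP1, the liver fatty acid binding protein, at 1.59, 2.33, 1.28, 113 and 95 against 9828 and 6713 (-9.45, SE 1.19).

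To place the liver libraries among the liver sorts, CD45-/EpCAM- cells were compared with the 4 libraries of CD45-/EpCAM+ liver cells. Of the 15576 genes, 120 were called higher (0.770%) and 316 lower (2.03%) in CD45-/EpCAM- cells. The count was not stable, at 25 genes without S19, the CD45-/EpCAM+ library that has the highest storage number, and at 0 without S5, where 939 genes had an unadjusted p under 0.05 by limma. HBB, at 840919 and 181672 against 16264, 41024, 15376 and 2314 in S4, S9, S13 and S19 (4.98, SE 1.08, adjusted p = 0.0259), and ALAS2, the first enzyme of haem synthesis in red cells (4.29, SE 0.97, adjusted p = 0.0297), were among the 10 genes with the largest rise, together with KEL, a red cell antigen. Without S19 none of the 10 was called. SPTLC3 was the lower gene with the smallest adjusted p among the 10 named, at 4.30 and 6.69 against 37.6, 43.4, 77.1 and 80.5 (-3.17, SE 0.41, adjusted p = 0.00302), and together with VGLL1 and MYRIP it kept its call without S19. Of the listed genes, 0 of 38 plasma protein genes and 0 of 31 genes of hepatocyte metabolism were called. The same held for 0 of 18 macrophage genes and 0 of 14 sinusoidal genes. In lists of this size these counts are near the shares of all genes, 0.770% and 2.03%, and do not show that the sorts are alike. EPCAM stood at 1779, 1760, 1205 and 1241 in CD45-/EpCAM+ cells (-1.01, adjusted p = 0.102) and was not called. The duct genes SOX9, EHF and SCTR and 4 smooth muscle genes, MYOCD, SYNPO2, LMOD1 and KCNMB1, were lower in CD45-/EpCAM- cells, with differences of -1.28, -1.75, -2.15, -2.41, -1.85, -1.46 and -1.56, and none of these calls held without S19. Also called lower were 3 members each of the fibroblast and stellate cell lists and 1 each of the mucin, stem cell factor, mesenchyme factor and signal lists, which share some genes. Called higher were 4 erythroid genes and 1 each of the HOX and granulocyte lists. The pBTSC comparison and this one share S5 and S14.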

How the data were processed

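Poly(A) RNA of sorted porcine cells was sequenced from stranded Illumina TruSeq libraries. The submitters' processing notes name STAR, Salmon and DESeq2, and the genome build is not given in the sources used here. The authors deposited 1 matrix of normalized counts, a signal scaled between libraries, with 25764 rows, of which 7782 have no gene name, and 20 libraries in 6 groups. These values are not raw counts. The estimate of depth takes the most frequent low value of a library as 1 read, and 60.4% to 84.3% of low values lay within 0.05 reads of a whole number, so no count test was run. Here all 20 libraries were fitted with limma 3.58.1 (R 4.3.3; eBayes with trend, Benjamini-Hochberg adjustment over all genes tested) on log2(normalized count + 1), after a filter of 10 normalized counts in at least 2 libraries, which left 15576 genes. A fold change on this scale understates the change of low genes. The fit was tested on simulated data with independent normal noise, which leave out shared donors, floors and counting error. It called 62% of genes changed by 2 on the log2 scale and 90% of those changed by 4. It also called 12 unchanged genes, and 0 in a run with no change. A gene whose liver libraries were both at or under 3 reads was given as at least the pBTSC median over the larger of the 2 liver floors. The closest pair of libraries differed by 2.94 times the counting noise, so none was counted as a repeat. Named genes were members of the lists, the 15 largest rises and falls that held without the 3 libraries under 2000000 reads and did not overlap, the 10 largest gains and losses in normalized counts, and the 10 largest differences in each direction between the EpCAM sorts. Members and lists were chosen with earlier results of these data known. Figures used matplotlib 3.10.9. Alternatives changed the pseudocount (0.1, 10), the filter (none, 50), the scaling, the fit and the libraries used. Some genes that the rules name are not reported here.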

Additional observations from a re-analysis of the deposited data

Results flagged for a closer look

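Of 184 genes named with values, 5 had 1 pBTSC library that lay apart from the other 4 by more than 0.71 of the group's whole range on the log2 scale. Chance gives such a library in about 1 of 20 groups of 5, and libraries of 1 group share their cells, so that genes are not independent here. SERPINF2 was lowest in S11, at 254 normalized counts. HFE2 was highest in S20, at 25.7, RSPO3 highest in S15, at 313, KEL highest in S7, at 60.4, and S100G highest in S2, at 88.4.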

How the results depend on the processing

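No gene named with values changed sign while called in any of the 19 alternatives, and 146 of the 184 kept their side of the threshold in all of them. The total of 5698 genes lay between 5412 and 5599 without 1 pBTSC library, and at 3390 without S5 and 5862 without S14. Leaving out 1 liver library leaves 1, which the fit assumes to vary like the other groups. Of the genes called in all libraries, 2918 were called both without S5 and without S14. With equal totals, 4624 were higher and 1509 lower. The comparison of the EpCAM sorts gave 879 genes without the 3 libraries under 2000000 reads, 718 with equal totals, 25 with the CD45-/EpCAM+ libraries up to S14 alone, and from 0 (without S5) to 1478 (without S14) with 1 library left out. With equal totals the members called were 3 for cell cycle and 8 for endothelium. Granulocyte, mast cell and megakaryocyte genes numbered 5 without the 3 libraries under 2000000 reads and 3 with S2, S7 and S11 alone, and 1 lymphocyte gene was called with only the 2 groups in the fit. Without 1 liver library, a choice made after seeing the data, the members called were 4 and 3 for cell cycle, 8 and 13 for duct epithelium, 8 and 3 for endothelium, 11 and 2 for erythroid cells, 5 and 1 for granulocytes, mast cells and megakaryocytes, and 1 and 2 for lymphocytes, the first of each pair being without S14. These lists had 24, 24, 13, 17, 15 and 18 members tested, in the same order. The counts take higher and lower calls together, and without S14 those for duct epithelium and for granulocytes, mast cells and megakaryocytes hold both. Several are near or below the shares of all genes called without S5 or without S14, given above. They come from fits with 1 liver library, so no conclusion on a list is drawn from them. The causes were not tested. No paired analysis was possible because the labels give the pBTSC and liver libraries no shared replicate numbers or donors. The shallow S15 cannot show levels under 37.7 normalized counts.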

Other observations

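Further genes outside the lists, chosen after their values were seen, differed in the same comparison, where 36.6% of genes were called. DUOX2, an oxidase of mucosal surfaces, stood at 3061, 140, 2030, 1991 and 653 normalized counts in S2, S7, S11, S15 and S20 and at 4.33 and 10.7 in S5 and S14. TSPAN1, a tetraspanin of secretory epithelia, stood at 1636, 176, 1032, 1368 and 751 against 1.42 and 11, and ERN2, a stress sensor of mucous cells, at 738, 351, 398, 463 and 254 against 0 and 5.46. S7 was the lowest pBTSC library for DUOX2 and TSPAN1 and S20 for ERN2.

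Neuronal genes outside the lists were CARTPT, a neuropeptide precursor, at 417, 110, 256, 75.3 and 17.7, and NEFL, a neurofilament chain, at 299, 72.4, 191, 26.8 and 40.3, both at 0 in S5 and S14. Both were higher in each H2B-GFP library than in S15 and S20. Among genes that were lower, S100G, a calcium-binding protein, stood at 88.4, 15.7, 16.7, 23.1 and 19.5 in pBTSCs against 26222 and 2463 (-8.25, SE 2.72, adjusted p = 0.0184 by limma), a call lost without S5. CCL16, a chemokine made in liver, stood at 2.49, 1.55, 0.638, 126 and 216 against 10647 and 6584 and had the gap between H2B-GFP and wild-type libraries that ALB had.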
